A study of Mus musculus with 50 samples.

Results

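Motor neurons made from embryonic stem cells were compared with motor neurons taken from the embryonic spinal cord, by sequencing RNA from nuclei of the DIV0 culture (0 days in vitro) and of E13.5 tissue (named by days of gestation). The comparison holds 4 libraries, 2 of DIV0 and 2 of E13.5, of the 28 RNA libraries and 50 samples of the series. Members were chosen by their labels alone. A further library carried a DIV0 title but a DIV28 file, so it was left out. Both groups had the genotype C57BL/6- Chat-Cre;SUN1-GFP-3xMYC, in which Cre made from the Chat gene puts a green, tagged protein on the nuclear membrane of cholinergic cells, and neither received a treatment. For E13.5, the brachial and lumbar spinal cord of several embryos was pooled per replicate, and tagged nuclei were pulled down with antibody on beads (INTACT). For DIV0, nuclei were pulled down in the same way from embryoid bodies at the end of a standard differentiation, in which retinoic acid and a Sonic hedgehog agonist pattern the cells, before any culture with astrocytes, and all came from a single stem cell line of that cross. Chat-Cre also marks cholinergic neurons other than skeletal motor neurons, and the methods describe some blood vessel material in E13.5 preparations.

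Spinal motor neurons are generated in the ventral neural tube under Sonic hedgehog, and retinoic acid and other signals set their position from head to tail. That position is written in the Hox genes, which lie in 4 clusters and are switched on from the low-numbered end in the hindbrain and neck towards the high-numbered end in the trunk and tail. Selector transcription factors then fix the motor neuron fate, and Hox proteins with their cofactors divide motor neurons into columns for limbs, trunk and viscera and into pools for single muscles.

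Read depth was 5217950 and 12731260 counts for the E13.5 libraries and 4117435 and 3496817 for DIV0. Of 55385 genes in the files, 13007 had at least 5 CPM (counts scaled to library size) in both libraries of DIV0 or of E13.5 and were tested. Values below are normalised counts (counts divided by a DESeq2 size factor) in E13.5 replicates 1 and 2 and DIV0 replicates 1 and 2, n = 2 in each group, and fold changes are DIV0 over E13.5. They come from the quasi-likelihood test of edgeR, with p adjusted by Benjamini-Hochberg over all tested genes. A gene was called higher or lower at an unadjusted p under 0.001 with at least a 2-fold difference. By this rule 2457 genes were higher at DIV0, 18.9% of those tested, and 3592 were lower, 27.6%. The median log2 fold change over all tested genes was -0.11. The split depended on the scale: with another reference library for the TMM factors, chosen after seeing the data, 3295 genes were higher and 3014 lower and the median moved by 0.28, whereas factors from 10 pan-neuronal genes gave 667 higher and 3353 lower and moved it by -0.49. No named gene that was called changed direction under either scaling.

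The groups also differed in the kinds of RNA they held. Mitochondrial transcripts were 0.761% and 0.612% of counts at E13.5 and 0.203% and 0.200% at DIV0, and the nuclear noncoding RNA Malat1 was 2.52% and 2.06% against 10.4% and 9.24%. The 2 E13.5 libraries were not alike: replicate 2 had more vessel transcripts and replicate 1 more neuronal ones. With bulk nuclei, fewer cells of a type and less RNA per cell cannot be told apart. The labels do not name separate cultures or animals for each library, so p-values measure spread between libraries. That spread was estimated over all 24 libraries of the fit, most of them of ages or days not compared here.

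Genes of the anterior end of the Hox clusters were higher in the cultured neurons. Of 8 Hox genes of paralogue groups 1 to 3, 6 were tested, 4 were higher at DIV0 and 0 lower, beside 18.9% of all genes higher. Hoxd3 had 56.03 and 17.5 at E13.5 and 955 and 679.95 at DIV0 (log2 fold change 4.59 ± 0.404 (SE), adjusted p = 6.17e-09). Both DIV0 libraries lay far above the E13.5 libraries. Hoxb3 and Hoxa3, which mark the caudal hindbrain and neck, were also higher, with log2 fold changes of 2.71 ± 0.42 (SE) and 2.37 ± 0.27 (SE) and adjusted p = 1.13e-05 and 2.22e-07. Hoxa2 (53.3 and 37.5 against 97.8 and 89.3) and Hoxb2 (57.8 and 47.3 against 116 and 87.8) had higher values in both DIV0 libraries but were not called. Hoxb1 and Hoxd1 were at or below 9.09 in every library and were not tested. The median log2 fold change of the 6 tested genes was 2.54. Summed over all 8 genes, the level was 308 and 245 at E13.5 and 2129.7 and 1951 at DIV0.

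The middle groups divided near paralogue group 5. Of 15 genes of groups 4 to 8, 14 were tested, 5 were higher at DIV0 and 6 were lower, beside 27.6% of all genes lower. The 5 higher genes were of groups 4 and 5, which mark the neck and upper forelimb level. Among them, Hoxa4 had 25.3 and 11.5 at E13.5 and 115 and 223 at DIV0 (log2 fold change 3.28 ± 0.47 (SE), adjusted p = 3.53e-06), and Hoxc4 had 84.05 and 45.98 at E13.5 and 356 and 298 at DIV0 (log2 fold change 2.39 ± 0.37 (SE), adjusted p = 1.08e-05). Hoxb4 (35.2 and 47.3 against 220.05 and 206), Hoxc5 (90.4 and 41.7 against 183 and 238) and Hoxa5 (51.5 and 44.3 against 118 and 165) followed, with log2 fold changes of 2.37, 1.73 and 1.59. The 6 lower genes were of groups 6 to 8. Hoxa7 had 224 and 276 at E13.5 and 2.57 and 4.54 at DIV0 (log2 fold change -6.099 ± 0.52 (SE), adjusted p = 4.12e-09). Hoxc8, which acts in motor pools of the caudal forelimb level, had 295 and 227 at E13.5 and 0 in both libraries at DIV0, which is at least 125-fold lower against a floor of 3 counts over the 2 DIV0 libraries (adjusted p = 7.57e-08). Hoxc6, the forelimb-level gene, had 66.9 and 77.1 at E13.5 and 12.9 and 10.6 at DIV0 (log2 fold change -2.58 ± 0.38 (SE), adjusted p = 4.44e-06). The Hoxb genes were less far apart, since Hoxb7 (225 and 334 against 47.6 and 87.8) and Hoxb8 (216 and 185 against 56.6 and 51.5) were lower with log2 fold changes of -2.03 and -1.86 and still held counts in both DIV0 libraries. Hoxd8 had a log2 fold change of -1.47 ± 0.27 (SE) (adjusted p = 6.34e-05). Hoxb5, Hoxb6 and Hoxd4 were tested and not called, with values of 66.9 and 40.9 against 75.9 and 89.3, 161 and 108 against 63.1 and 104 and 177 and 123 against 198 and 313. The call of Hoxa5 was lost with any 1 of the 4 libraries left out, with log2 fold changes of 1.78 (adjusted p = 0.00275) and 1.3 (adjusted p = 0.0218) without DIV0 replicate 1 or 2 and 1.74 (adjusted p = 0.00427) and 1.46 (adjusted p = 0.0184) without E13.5 replicate 1 or 2. Hoxc5 lost its call without DIV0 replicate 2, at 1.49 (adjusted p = 0.00537), and without E13.5 replicate 2, at 1.23 (adjusted p = 0.012).

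At the posterior end the cultured neurons had almost no Hox transcripts. Hox9 genes mark the thoracic level, and groups 10 to 13 mark the lumbar and more caudal cord. The E13.5 RNA came from brachial and lumbar cord, whereas the ATAC nuclei described below also came from thoracic cord. Hoxb9 was the only gene of group 9 with counts at DIV0, with 282 and 188 at E13.5 and 2.57 and 16.7 at DIV0 (log2 fold change -4.64 ± 0.41 (SE), adjusted p = 6.46e-09). Hoxa9 had 111 and 92.8 at E13.5 and 0 in both libraries at DIV0 (at least 48.9-fold lower, adjusted p = 3.12e-07), and Hoxc9 had 65.1 and 63.01 at E13.5 and 0 in both libraries at DIV0 (at least 30.7-fold lower, adjusted p = 3.20e-05). Hoxd9 (21.7 and 20.01 against 0 in both) was too low to be tested. Of the 12 genes of groups 10 to 13, 11 had no count in either DIV0 library and 0 of 12 were without counts at E13.5. The 3 that were tested were lower at DIV0, beside 27.6% of all genes. Hoxc10, a determinant of lumbar motor neurons, had 188 and 186 at E13.5 and 0 in both libraries at DIV0 (at least 89.5-fold lower, adjusted p = 9.03e-11). Hoxd10, which acts with it at the hindlimb level, had 185 and 149 at E13.5 and 0 in both libraries at DIV0 (at least 79.98-fold lower, adjusted p = 4.01e-07), and Hoxa10 had 66.9 and 70.3 at E13.5 and 0 in both libraries at DIV0 (at least 32.9-fold lower, adjusted p = 2.77e-07). A gene tested only through its E13.5 level had to differ, so the sums over all members are the fuller description. They were 479.9 and 364 at E13.5 and 2.57 and 16.7 at DIV0 for group 9 and 533 and 469 at E13.5 and 0 and 3.03 at DIV0 for groups 10 to 13, where the DIV0 value is 2 counts of Hoxb13.

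**Figure D1:**
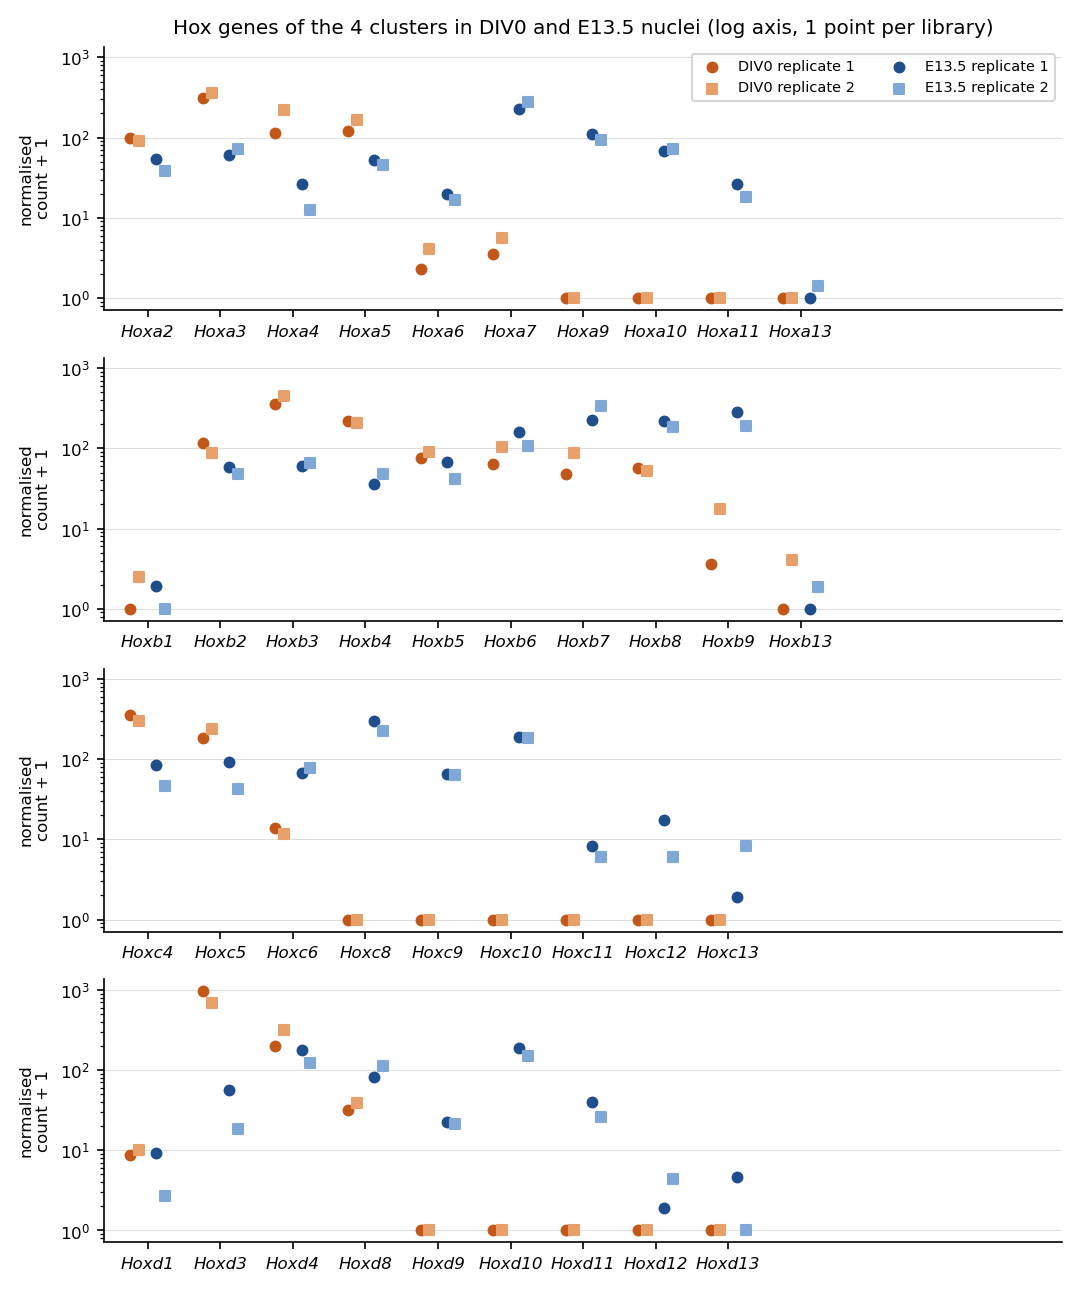
Normalised counts plus 1 (log axis, per library) of the Hox genes reported here of each cluster in order of paralogue group, for 2 E13.5 and 2 DIV0 libraries. The DIV0 points lie above the E13.5 points in the Hoxa genes of groups 2 to 4 (Hoxa4 115 and 223 against 25.3 and 11.5) and drop to 0 at the posterior end (Hoxc10 0 against 188 and 186).

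Per unit of length, the order of the Hox genes also differed. By deposited TPM (transcript abundance scaled to length and depth), the mean of the 2 DIV0 libraries was highest for Hoxd3 at 23.5, followed by Hoxb3 at 16.8, Hoxc4 at 12.3, Hoxd4 at 10.8 and Hoxa3 at 10.8. At E13.5 the highest mean TPM was that of Hoxb7 at 37.7, followed by Hoxb8 at 22.02, Hoxc8 at 21.5, Hoxa7 at 20.1 and Hoxd4 at 15.7. Thus only Hoxd4 stood among the leading 5 genes of both groups. Neighbours in these orders were within the spread of the libraries in several cases: Hoxd4 had 8.77 and 12.8 TPM at DIV0 and Hoxa3 10.52 and 10.99.

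The clusters are compact, at chromosome 6 from 52155590 to 52260880 (Hoxa), chromosome 11 from 96194316 to 96368256 (Hoxb), chromosome 15 from 102921103 to 103036852 (Hoxc) and chromosome 2 from 74668310 to 74765142 (Hoxd), in mm10. Of 39 Hox gene models, 11 overlapped another Hox gene on the same strand and 23 overlapped some gene, so reads of neighbours such as Hoxc5 and Hoxc6, or Hoxd3 and Hoxd4, may be divided between them. The noncoding RNAs of the anterior Hoxa end were also higher at DIV0. Hoxaas2, transcribed antisense to Hoxa3, had 12.7 and 19.6 at E13.5 and 993 and 1016 at DIV0 (log2 fold change 5.92 ± 0.31 (SE), adjusted p = 3.39e-11). Hotairm1, another RNA of that end, had 20.8 and 15.8 at E13.5 and 79.8 and 93.9 at DIV0 (log2 fold change 2.28 ± 0.47 (SE), adjusted p = 2.37e-04). Its call was lost without DIV0 replicate 2, at 2.13 (adjusted p = 0.00366), and without E13.5 replicate 2, at 2.07 (adjusted p = 0.00839). Counting did not use the strand under the stated default settings, so reads of these RNAs and of their antisense partners cannot be told apart. The other 7 noncoding RNAs of the clusters had at most 15.1 in any library, and Hotair, from the Hoxc posterior end, had 2.71 and 3.83 against 0 in both.

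Hox proteins bind DNA with Pbx and Meis cofactors. These were higher in the cultured neurons for 6 of 7 genes, with 0 lower, beside 18.9% of all genes higher. Meis1 had 1081 and 576 at E13.5 and 4342 and 5087 at DIV0 (log2 fold change 2.53 ± 0.23 (SE), adjusted p = 8.23e-09), and Meis2 had 605 and 315 at E13.5 and 2794 and 3248 at DIV0 (log2 fold change 2.74 ± 0.25 (SE), adjusted p = 1.03e-08). Pbx3, Meis3 and Pbx4 were higher with log2 fold changes of 1.97, 1.88 and 1.73. Pbx2 had 99.4 and 208 against 70.8 and 83.3 and was not called. With factors from the pan-neuronal genes Pbx4 and Meis3 were no longer called, nor were Hoxa3, Hoxb3, Hoxb4, Hoxa5, Hoxc5 and Hotairm1, and without E13.5 replicate 2 the log2 fold change of Pbx4 was 1.55 (adjusted p = 0.00719).

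Other ages and days place these levels. Posterior genes were present in sorted Hb9-GFP cells at E10.5, where Hoxc10 had 319 ± 32.4 normalised counts (SD, n = 3; whole cells rather than nuclei). At DIV7, after 7 days with astrocytes, Hoxc10, Hoxd10 and Hoxc8 had 0 in both libraries. Hoxd3 had 217 ± 5.58 at DIV7 (SD, n = 2) and 306 ± 64.4 at E10.5 (SD, n = 3). The differences between these groups were not tested.

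Chromatin at the same genes was read from the ATAC-seq peak lists, which mark open DNA, in 2 libraries of each group, from sorted nuclei of brachial, thoracic and lumbar cord at E13.5. Over all tested genes, a peak summit lay within 1 kb of the gene start in both libraries for 83.15% at DIV0 and 84.1% at E13.5. Among 250 tested genes with no count in either DIV0 RNA library, the share was 44.4% at DIV0. It was 51.2% at E13.5, where these genes had RNA, so their share was low in both groups. The posterior Hox genes had summits although their RNA was not counted: 10 of the 12 genes of groups 10 to 13 had a summit in both DIV0 libraries and 8 of 12 in both E13.5 libraries. All 4 genes of group 9 had summits in both libraries of both groups. Fewer summits lay close to the start, since within 250 bases the counts for groups 10 to 13 were 4 at DIV0 and 5 at E13.5, and for group 9 they were 0 and 2. For groups 10 to 13 these were 33.3% and 41.7% of the genes. Over all tested genes the share within 250 bases was higher, at 68.2% at DIV0 and 69.5% at E13.5. Peak fold enrichment was given per library and is not comparable in height across libraries of unequal peak number (111130 and 93736 summits at DIV0 and 224946 and 184802 at E13.5). The highest enrichment within 1 kb of Hoxc10 was 24.3 and 12.1 at E13.5 and 10.3 and 10.3 at DIV0. The annotated start of Hoxc5, which was higher at DIV0, lies 647 bases from that of Hoxc10, so the same summits were read for both. For Hoxd10 it was 23.3 and 10.2 at E13.5 and 12.1 and 11.99 at DIV0, and for Hoxa10 14.1 and 9.38 at E13.5 and 12.1 and 9.88 at DIV0. Hoxc8, also without RNA counts at DIV0, had 7.45 and 4.67 at E13.5 and 5.15 and 5.25 at DIV0. At the anterior end the pattern was not that of the RNA, since Hoxa3 and Hoxc4, both higher at DIV0, had no DIV0 summit within 1 kb of the gene start and a summit in both E13.5 libraries, as did Hoxb6 and Hoxc6. With any annotated transcript start used in place of the gene start, an alternative added after seeing the data, all 8 genes of groups 1 to 3 and 12 of the 15 of groups 4 to 8 had summits in both libraries of each group.

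**Figure D2:**
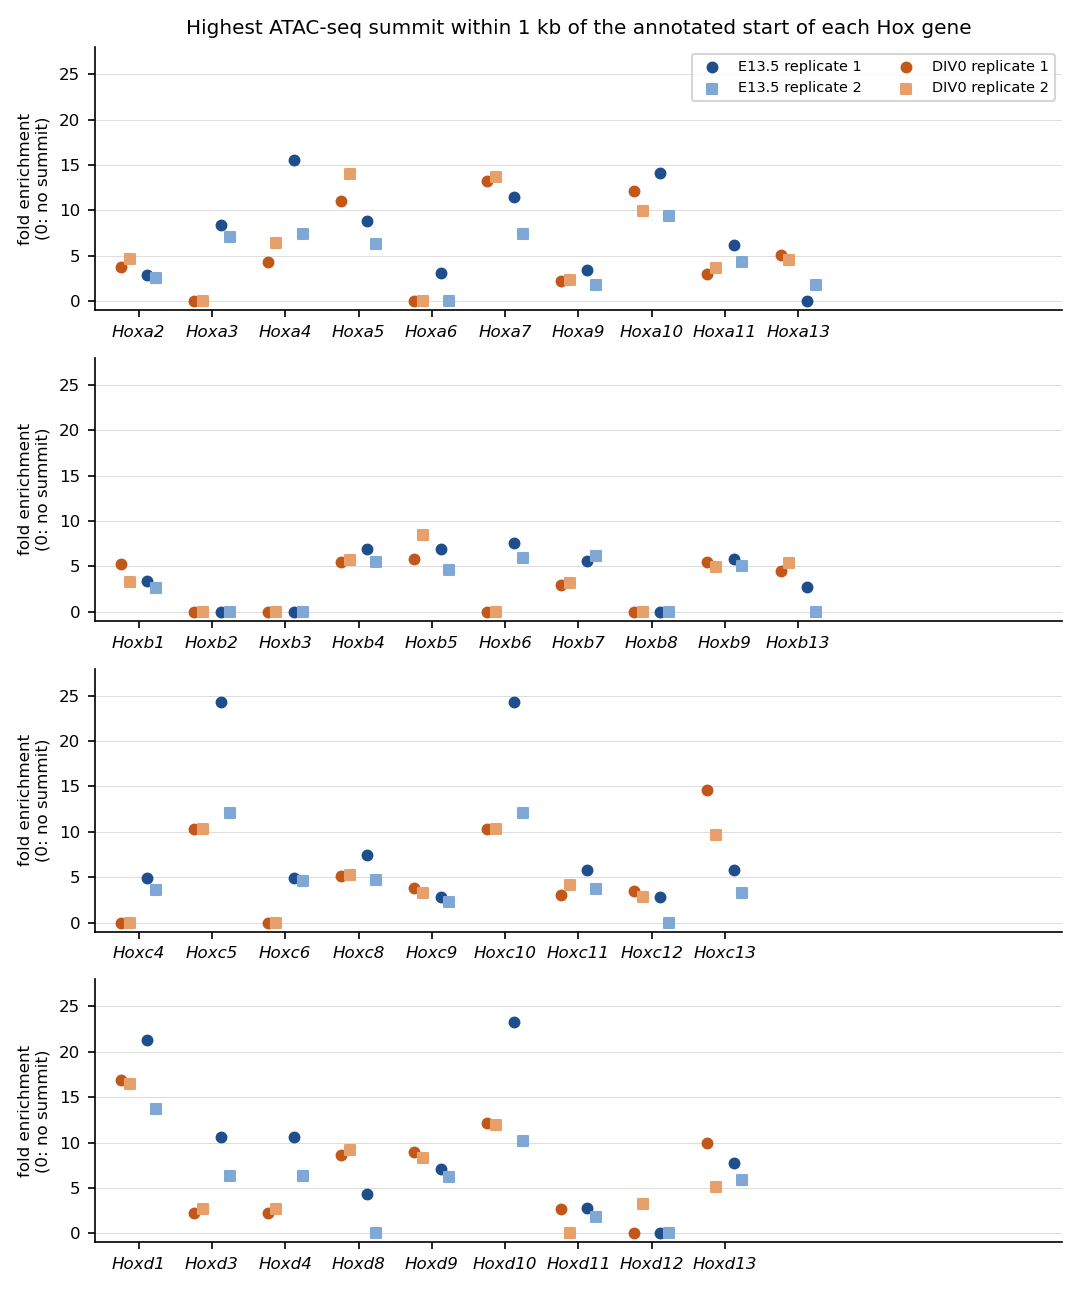
Highest fold enrichment of an ATAC peak summit within 1 kb of the start of each Hox gene reported here, per library, with 0 where no summit was listed, for 2 E13.5 and 2 DIV0 libraries. DIV0 summits are present at posterior genes such as Hoxc10 (10.3 and 10.3) and Hoxd10 (12.1 and 11.99), whose RNA was at 0 in both DIV0 libraries.

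Promoter sequences are shown for a gene higher in the culture and a gene without counts there. Both had a summit within 250 bases of the gene start in all 4 ATAC libraries. Hoxc8 and Hoxc10 were also sought but had no RefSeq promoter entry. The sequences are the 250 bases before the RefSeq start in GRCm38.p6, 5′ to 3′ on the gene's strand, with each CG dinucleotide in capitals. The Hoxa5 sequence is from chr6:52204588-52204837 on the minus strand and the Hoxd10 sequence from chr2:74691641-74691890 on the plus strand.
Hoxa5: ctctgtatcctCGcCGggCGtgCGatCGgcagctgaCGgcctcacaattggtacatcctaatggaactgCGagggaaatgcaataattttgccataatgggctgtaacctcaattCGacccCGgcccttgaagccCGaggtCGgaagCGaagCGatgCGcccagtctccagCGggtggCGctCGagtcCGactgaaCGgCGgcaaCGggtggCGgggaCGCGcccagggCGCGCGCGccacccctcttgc
Hoxd10: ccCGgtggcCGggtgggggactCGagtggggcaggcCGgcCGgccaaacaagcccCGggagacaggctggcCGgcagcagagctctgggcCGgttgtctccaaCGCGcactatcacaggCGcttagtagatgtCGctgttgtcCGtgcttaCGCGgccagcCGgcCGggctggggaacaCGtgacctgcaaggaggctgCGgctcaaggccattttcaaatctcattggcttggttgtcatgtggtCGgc
Hoxa5 had 28 CG dinucleotides and 63.6% G and C. The summits nearest to its start lay 50 and 46 bases into the gene at E13.5 and 21 and 56 at DIV0, outside the bases shown. Hoxd10 had 20 CG dinucleotides and 65.6% G and C, and its nearest summits lay at -99 and -96 bases at E13.5 and -98 and -88 at DIV0. In both genes the accessible site was in nearly the same place in the culture and in the embryo, whereas the RNA was 51.5 and 44.3 against 118 and 165 for Hoxa5 and 185 and 149 against 0 in both for Hoxd10 (E13.5 against DIV0). The dinucleotide CG was searched as the letters CG, which read the same on both strands. At least as many were found in 7.61% of 32851 promoters of the same length for Hoxa5 and in 17.9% for Hoxd10, and the median was 6 over all promoters and 12.5 over the 24 Hox promoters in the table.

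Factors of the forebrain and midbrain were at the floor in both groups. None of 10 (Otx2, Emx2 and others) was high enough to be tested, and their summed level was 3.61 and 11.9 at E13.5 and 7.72 and 9.09 at DIV0. Of 8 factors of the hindbrain and cranial motor neurons 2 were tested and 0 called, Gbx2 among them with 41.6 and 34.9 against 6.43 and 19.7. The visceral and branchial motor neuron factors Phox2a and Tbx20 did not pass the filter but had more counts at DIV0, above all in replicate 1. Tbx20 had 1.81 and 2.13 at E13.5 and 169 and 18.2 at DIV0. Phox2a had 1.81 and 0.852 at E13.5 and 21.9 and 6.06 at DIV0. Replicate 1 had the higher value of the 2 DIV0 libraries at both genes, which were not tested.

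Retinoic acid and Sonic hedgehog pattern the cord and are the signals that standard differentiation supplies. Of 13 retinoic acid genes 10 were tested, 1 was higher at DIV0 and 5 were lower, beside 18.9% and 27.6% of all genes. The median log2 fold change was -1.20. Rarb, a receptor that retinoic acid itself induces, had 194 and 126 at E13.5 and 700.04 and 541 at DIV0 (log2 fold change 1.98 ± 0.34 (SE), adjusted p = 3.48e-05). Dhrs3, which reduces retinaldehyde to retinol, had 80.4 and 116 at E13.5 and 3.86 and 3.03 at DIV0 (log2 fold change -4.76 ± 0.49 (SE), adjusted p = 4.04e-08). Aldh1a2, which makes retinoic acid and marks limb-level motor neurons, had 746 and 313 at E13.5 and 122 and 60.6 at DIV0 (log2 fold change -2.504 ± 0.45 (SE), adjusted p = 5.49e-05). Stra6, a receptor that takes up retinol, and the retinoic acid receptor Rarg were lower with log2 fold changes of -1.92 and -1.66. The calls of Stra6, Rarg and Aldh1a2 each rested on particular libraries: without E13.5 replicate 2 the log2 fold changes were -1.27 (adjusted p = 0.015) and -1.08 (adjusted p = 0.0304), and without DIV0 replicate 2 that of Aldh1a2 was -2.13 (adjusted p = 0.00294). Aldh1a2 was also not called without E13.5 replicate 1, at -1.702 (adjusted p = 0.00268), and Rarg and Stra6 were not called without either DIV0 library. Rarb, the only higher gene of the list, was not called with factors from the pan-neuronal genes, at 1.59 (adjusted p = 0.0122), nor was Rarg, at -2.28 (adjusted p = 0.00407). Cyp26b1, which degrades retinoic acid, had 63.3 and 103 against 171 and 269.6, and Rara had 116 and 153 against 175 and 177, and neither was called.

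Among 11 hedgehog genes 8 were tested, 3 were higher and 2 lower, beside 18.9% and 27.6% of all genes. The receptor and target Ptch1 had 263 and 249 at E13.5 and 664 and 727 at DIV0 (log2 fold change 1.46 ± 0.21 (SE), adjusted p = 4.99e-06), and the coreceptors Cdon and Gas1 were higher with log2 fold changes of 1.53 ± 0.29 (SE) and 1.91 ± 0.41 (SE). The repressor Gli3 had 161 and 226 at E13.5 and 1.29 and 1.51 at DIV0 (adjusted p = 5.06e-08), with 2 counts in all at DIV0. Boc, another coreceptor, had 32.5 and 40.9 against 6.43 and 7.57 (log2 fold change -2.37). Gas1 was not called without DIV0 replicate 1, at 1.68 (adjusted p = 0.00701), or E13.5 replicate 2, at 1.35 (adjusted p = 0.015), and Boc not without DIV0 replicate 1, at -2.29 (adjusted p = 0.0027). With factors from the pan-neuronal genes none of the 3 higher genes was called, at 0.98 (adjusted p = 0.0904) for Ptch1, 0.997 (adjusted p = 0.11) for Cdon and 1.51 (adjusted p = 0.0198) for Gas1.

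Motor neuron selector factors were higher in the cultured nuclei, for 5 of 7 genes with 0 lower, beside 18.9% of all genes higher. Isl1, the LIM factor that sets motor neuron fate with Lhx3, had 573 and 297 at E13.5 and 1843 and 1748 at DIV0 (log2 fold change 2.07 ± 0.27 (SE), adjusted p = 9.71e-07). Lhx3, which stays on in medial column neurons, had 16.3 and 24.7 at E13.5 and 113 and 164 at DIV0 (log2 fold change 2.73 ± 0.38 (SE), adjusted p = 2.85e-06), and its relative Lhx4 had 82.2 and 77.5 at E13.5 and 445 and 594 at DIV0 (log2 fold change 2.72 ± 0.22 (SE), adjusted p = 2.26e-09). The DIV0 libraries lay above both E13.5 libraries for each. Mnx1 (Hb9), which represses interneuron fate, had 65.1 and 61.3 at E13.5 and 181 and 303 at DIV0, and Isl2 had 77.7 and 51.1 at E13.5 and 187 and 227 at DIV0, with log2 fold changes of 1.96 ± 0.38 (SE) and 1.72 ± 0.35 (SE) (adjusted p = 1.23e-04 and 2.17e-04). Both lost the call without DIV0 replicate 2, at 1.51 (adjusted p = 0.0058) for Mnx1 and 1.54 (adjusted p = 0.00387) for Isl2, and without E13.5 replicate 2, at 1.9 (adjusted p = 0.00293) and 1.42 (adjusted p = 0.00858). The broadly used partners Ldb1 (512 and 672 against 647 and 724) and Lmo4 (150.02 and 138 against 104 and 117) were not called. Relative to the summed counts of 10 pan-neuronal genes, the 7 selector genes came to 3.93 and 5.33 per 100 at E13.5 and 13.11 and 12.97 at DIV0. Nefm, whose values are given below, made up a large part of that sum at E13.5 and was lower in both DIV0 libraries. The ratio therefore depends on that gene as well as on the selectors. With factors set from those pan-neuronal genes, Isl1, Lhx3 and Lhx4 remained higher and Mnx1 and Isl2 were not called.

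Cholinergic genes were higher for 3 of 5 tested, with 0 lower, beside 18.9% of all genes higher. Chat, which makes acetylcholine and drives the Cre used to mark these nuclei, had 221 and 112 at E13.5 and 2225 and 1526 at DIV0 (log2 fold change 3.53 ± 0.31 (SE), adjusted p = 6.16e-09). Slc18a3, the vesicular transporter inside the Chat locus, had 191 and 81.3 at E13.5 and 1073 and 771 at DIV0 (log2 fold change 2.81 ± 0.405 (SE), adjusted p = 4.03e-06), and Ache, which breaks acetylcholine down, had 63.3 and 44.7 at E13.5 and 201 and 186 at DIV0 (log2 fold change 1.89 ± 0.297 (SE), adjusted p = 1.14e-05). Ache was not called with factors from the pan-neuronal genes, at 1.45 (adjusted p = 0.00611). The choline transporter Slc5a7 (519 and 209 against 354 and 283) was not called, and its groups overlapped. The intermediate filament Prph had 1204 and 738 against 586 and 549.7 and was not called. Pan-neuronal genes summed to 37523 and 24808 at E13.5 and 26865 and 29888 at DIV0, so the groups overlapped. Of these, 2 of 10 were called, beside 46.5% of all genes. They were Elavl4 (log2 fold change 1.58 ± 0.203 (SE)) and Snap25 (1.903 ± 0.33 (SE)), both higher. Tubb3, Nefm and Nefl had values of 1969 and 990.3 against 435 and 565, 17844 and 14687 against 6749 and 7735 and 5416 and 2541 against 2558 and 3026 and were not called.

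Of 7 tested factors of motor columns, 2 were higher and 4 lower at DIV0, beside 18.9% and 27.6% of all genes. The 2 higher genes were Lhx3 and Lhx4, described above. Foxp1, which defines limb-level lateral column neurons downstream of Hox, had 973 and 1004 at E13.5 and 332 and 360.4 at DIV0 (log2 fold change -1.49 ± 0.296 (SE), adjusted p = 1.53e-04). Mecom (Evi1) had 631 and 877 at E13.5 and 235 and 189 at DIV0 (log2 fold change -1.804 ± 0.296 (SE), adjusted p = 1.90e-05), and Etv1, a factor of axial motor neurons and of some limb pools, had 93.99 and 67.7 at E13.5 and 14.2 and 15.1 at DIV0 (log2 fold change -2.43 ± 0.55 (SE), adjusted p = 5.72e-04). Aldh1a2, given above, was the other lower gene of the list. E13.5 replicate 2 had more endothelial RNA, with sums of 16107 and 30916 at E13.5 against 12.9 and 31.8 at DIV0. That library had the higher E13.5 value for Foxp1 and Mecom and the lower value for Etv1 and Aldh1a2. The part of vessel RNA in these differences was not tested. Foxp1 was not called without DIV0 replicate 1, at -1.47 (adjusted p = 0.00325), and Etv1 was not called without either DIV0 library or E13.5 replicate 1, where it was -2.14 (adjusted p = 0.00478). Lhx1, a lateral column factor that dorsal interneurons also use, had 59.6 and 47.7 against 109 and 249.9 and was not called. Nos1, a marker of autonomic motor neurons, had 17.2 and 9.79 against 11.6 and 9.09 and was too low to be tested.

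Of 7 tested genes of motor pools, 2 were higher and 3 lower, beside 18.9% and 27.6% of all genes. Etv4 (Pea3), which limb muscles induce in their motor pools through GDNF, had 51.5 and 45.1 at E13.5 and 1.29 and 0 at DIV0 (adjusted p = 1.18e-04), with 1 count in all at DIV0. Cdh20, a cadherin of the same pools, had 56.03 and 28.95 at E13.5 and 3.86 and 1.51 at DIV0 (log2 fold change -3.83 ± 0.64 (SE), adjusted p = 1.96e-05). Alcam, an adhesion protein of motor axons, had 554 and 243 at E13.5 and 184 and 93.9 at DIV0 (log2 fold change -1.49 ± 0.36 (SE), adjusted p = 9.13e-04). Thus Etv4 and Cdh20 were near the floor in the culture, and Alcam was present in both groups. Sema3e, a guidance cue of the Etv4 pools, had 63.3 and 20.01 against 1.29 and 3.03 and was not tested. Nkx6-1 and Nkx6-2, homeodomain factors of progenitors and of some pools, were higher at DIV0, with 31.6 and 30.7 at E13.5 and 139 and 92.4 at DIV0 for Nkx6-1 (log2 fold change 1.92 ± 0.28 (SE)) and 9.04 and 15.3 against 73.3 and 115 for Nkx6-2 (2.91 ± 0.53 (SE)). With factors from the pan-neuronal genes neither was called, at 1.45 (adjusted p = 0.0183) for Nkx6-1 and 2.33 (adjusted p = 0.0123) for Nkx6-2, which left 0 higher and 3 lower genes in the list. Runx1 and Pcdh10 were not called, and Pou3f1 was not tested. Etv4 was not called without DIV0 replicate 2, at an adjusted p of 0.00335, and Alcam was not called without it, at -1.12 (adjusted p = 0.0253), or without E13.5 replicate 1, at -0.73 (adjusted p = 0.0632).

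**Figure D3:**
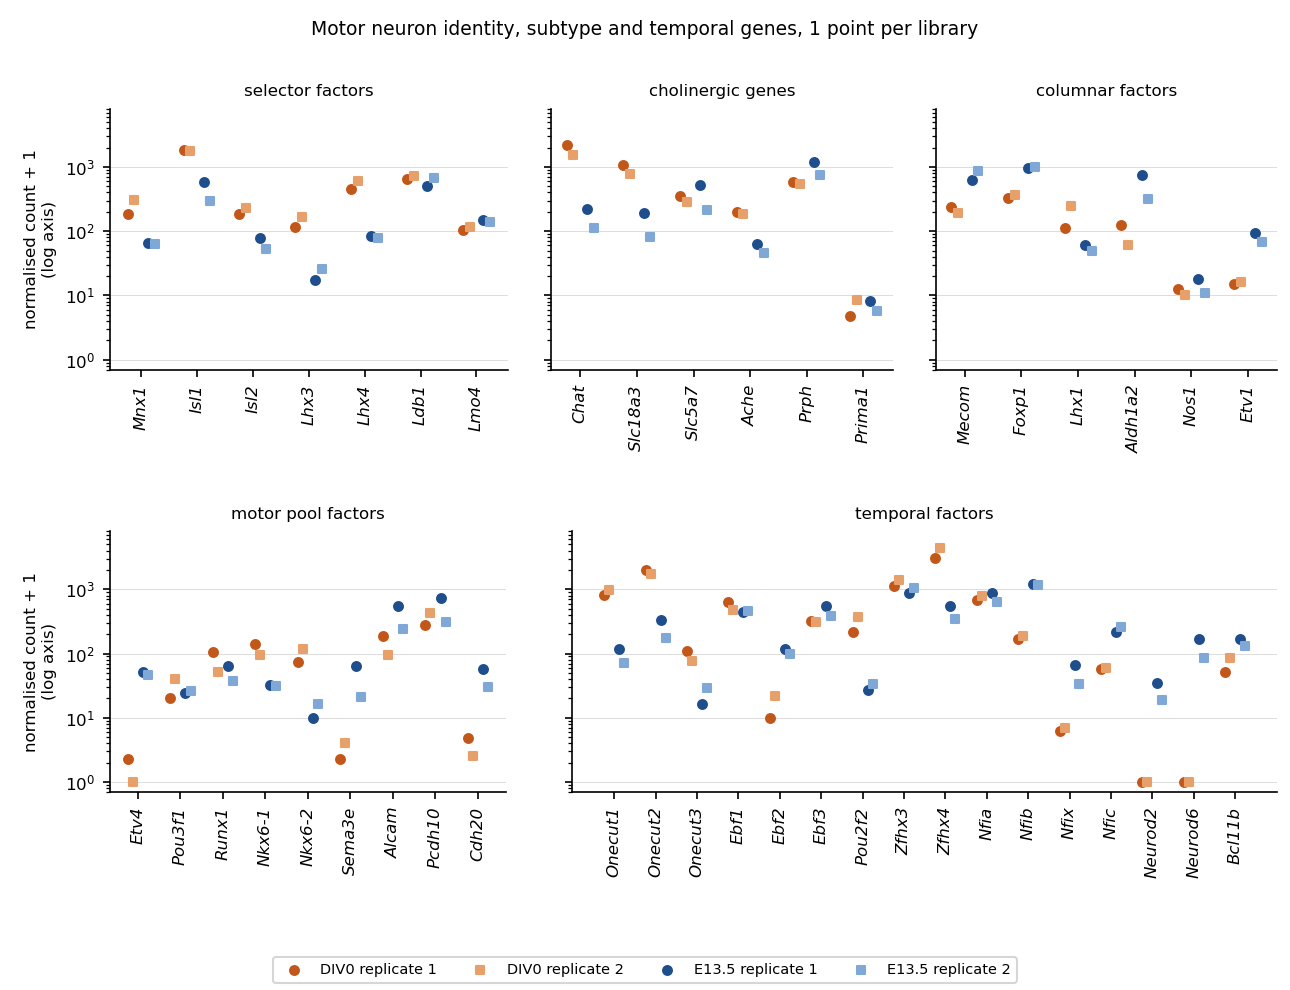
Normalised counts plus 1 (log axis) in each of 2 E13.5 and 2 DIV0 libraries for selector, cholinergic, columnar, motor pool and temporal genes. Isl1, Lhx4 and Chat lie higher at DIV0 (Chat 2225 and 1526 against 221 and 112), and Foxp1, Mecom, Etv4 and Nfib lie lower (Nfib 169.9 and 186 against 1206 and 1179).

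Markers that later separate alpha, gamma, fast and slow motor neurons were mostly below or near the filter, since 6 of 12 were tested. Mmp9, a marker of fast motor neurons, had 92.2 and 65.6 at E13.5 and 0 in both libraries at DIV0 (at least 37.8-fold lower, adjusted p = 1.80e-07). Esrrg, linked to gamma and slow motor neurons, had 212 and 96.2 at E13.5 and 360.3 and 436 at DIV0 (log2 fold change 1.404 ± 0.36 (SE), adjusted p = 0.00177), but was not called without DIV0 replicate 1, at 1.5 (adjusted p = 0.00546), DIV0 replicate 2, at 1.23 (adjusted p = 0.0194), or E13.5 replicate 2, at 0.92 (adjusted p = 0.0496), nor with factors from the pan-neuronal genes, at 1.06 (adjusted p = 0.0222). Chodl, of fast motor neurons, had 196 and 79.6 against 59.2 and 65.1 and the neuropeptide gene Calca had 28.02 and 6.39 against 3.86 and 1.51, neither of them called.

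Of receptors for survival factors, 3 of 10 tested genes were called, 1 higher and 2 lower, beside 46.5% of all genes called in either direction. Cntfr, the CNTF receptor subunit, had 87.7 and 65.1 at E13.5 and 261 and 283 at DIV0 (log2 fold change 1.87 ± 0.25 (SE), adjusted p = 1.51e-06). Its signalling partners were lower, Lifr with 812 and 726 at E13.5 and 198 and 162 at DIV0 (log2 fold change -2.07 ± 0.18 (SE), adjusted p = 3.95e-09) and Il6st (gp130) with 653 and 651 at E13.5 and 233 and 221 at DIV0 (log2 fold change -1.501 ± 0.19 (SE), adjusted p = 8.04e-07). Cntfr was not called with factors from the pan-neuronal genes, at 1.42 (adjusted p = 0.00591). The GDNF receptor Ret (426 and 218 against 467 and 365) and the neurotrophin receptors Ntrk3 (391 and 198 against 288 and 273) and Ngfr (565 and 317 against 414 and 557) overlapped between the groups. Among 17 tested axon guidance genes, 4 were higher and 1 lower, beside 18.9% and 27.6% of all genes. Their median of 0.17 lay near that of all genes. Cntn2 (TAG-1), an adhesion protein of young axons, had 420.2 and 304 at E13.5 and 2116 and 1928 at DIV0 (log2 fold change 2.503 ± 0.28 (SE), adjusted p = 1.67e-07), and Epha5 had 359 and 207 at E13.5 and 863 and 1685 at DIV0 (log2 fold change 2.195 ± 0.28 (SE), adjusted p = 9.26e-07). Epha3, a receptor of medial column axons, had 319 and 169 at E13.5 and 37.3 and 28.8 at DIV0 (log2 fold change -2.84 ± 0.39 (SE), adjusted p = 1.98e-06). The limb-choice receptor Epha4 (590.1 and 378 against 335 and 509) and the lateral column genes Nrp1 (1476 and 1601 against 862 and 1165) and Unc5c (2183 and 807 against 1441 and 1314) were not called. Dcc and Fgfr1 were higher with log2 fold changes of 1.401 and 1.14. Without E13.5 replicate 2 Dcc was at 1.05 (adjusted p = 0.00728), and Fgfr1 was at 0.54 (adjusted p = 0.0478) without DIV0 replicate 1 and 0.98 (adjusted p = 0.00498) without E13.5 replicate 1, and neither was called there or with factors from the pan-neuronal genes, at 1.03 (adjusted p = 0.0115) and 0.62 (adjusted p = 0.253).

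Of 15 tested factors that follow the age of a neuron, 4 were higher and 5 lower, beside 18.9% and 27.6% of all genes. The median was -0.02. Onecut1, of young postmitotic neurons, had 115 and 70.3 at E13.5 and 809 and 981 at DIV0 (log2 fold change 3.31 ± 0.27 (SE), adjusted p = 2.43e-09), Onecut2 had 326 and 172 at E13.5 and 2004 and 1709.7 at DIV0 (log2 fold change 2.92 ± 0.23 (SE), adjusted p = 1.83e-09) and Pou2f2 had 26.2 and 32.8 at E13.5 and 212 and 376 at DIV0 (log2 fold change 3.31 ± 0.35 (SE), adjusted p = 6.03e-08). Zfhx4 was also higher, with a log2 fold change of 3.099 ± 0.297 (SE). The lower genes included 3 nuclear factor I members, a family that appears later in spinal neurons and glia. Nfib had 1206 and 1179 at E13.5 and 169.9 and 186 at DIV0 (log2 fold change -2.72 ± 0.38 (SE), adjusted p = 2.42e-06), Nfic had 216 and 254 at E13.5 and 56.6 and 57.5 at DIV0 (log2 fold change -2.02 ± 0.35 (SE), adjusted p = 3.72e-05) and Nfix had 65.1 and 32.4 at E13.5 and 5.15 and 6.06 at DIV0 (log2 fold change -3.05 ± 0.53 (SE), adjusted p = 4.99e-05). Nfia was apart from them, at 872 and 639.9 against 676 and 799.6, with overlapping groups and a log2 fold change of -0.02 ± 0.32 (SE). Neurod6 had 169 and 83.9 at E13.5 and 0 in both libraries at DIV0 (at least 60.6-fold lower, adjusted p = 2.03e-06), and Ebf2 had 115 and 97.1 against 9.01 and 21.2 (log2 fold change -2.81). Ebf2, which also acts in early postmitotic neurons, was not called without DIV0 replicate 1, at -2.33 (adjusted p = 0.00617). At E10.5, in whole cells, Nfib had 61.9 ± 34.4 and Onecut2 had 1388 ± 248 (SD, n = 3).

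Progenitor genes were low in both groups and dividing-cell genes were lower in the culture. Of 18 progenitor and proneural factors 7 were tested, and 1 (Nkx6-1) was higher and 2 lower at DIV0, beside 18.9% and 27.6% of all genes. Hes1, a Notch target, had 145 and 219 at E13.5 and 14.2 and 3.03 at DIV0 (log2 fold change -4.31 ± 0.48 (SE), adjusted p = 1.23e-07). Olig2, the factor of motor neuron progenitors, had 0.904 and 1.28 at E13.5 and 14.2 and 31.8 at DIV0, and did not pass the filter. Sox2 and Neurod1 overlapped between the groups. Of 12 cell cycle genes 11 were lower at DIV0 and 0 higher, beside 27.6% of all genes lower. The median log2 fold change was -2.71. The mitotic kinase Cdk1 had 268 and 445 at E13.5 and 11.6 and 16.7 at DIV0 (log2 fold change -4.64 ± 0.495 (SE), adjusted p = 7.76e-08), and Top2a had 1287 and 2485 at E13.5 and 355 and 218 at DIV0 (log2 fold change -2.69 ± 0.32 (SE), adjusted p = 3.24e-07). Mki67, which marks all cycling phases, had 2409 and 4722 at E13.5 and 1739.8 and 1487 at DIV0 and was not called. E13.5 replicate 2 had the higher value for all 12 genes, and it also had more endothelial RNA, with endothelial sums of 16107 and 30916 at E13.5 and 12.9 and 31.8 at DIV0, whose part in this was not tested. Without that library Aurkb was at -1.61 (adjusted p = 0.00641), Bub1 at -2.04 (adjusted p = 0.0162) and Cenpf at -1.76 (adjusted p = 0.00274), none of them called. Without DIV0 replicate 1 Aurkb was not called, at -2.21 (adjusted p = 0.00425), and without DIV0 replicate 2 Bub1 and Cenpf were not, at -1.91 (adjusted p = 0.0265) and -2.11 (adjusted p = 0.00303). With factors from the pan-neuronal genes Nkx6-1 and Bub1 were not called, and Bub1 was at -2.97 (adjusted p = 0.00528).

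Transcripts of other spinal neurons were low or not counted in the culture. Of 20 interneuron factors 12 had no count in either DIV0 library and 0 of 20 were without counts at E13.5, and the sums were 450.1 and 522 at E13.5 and 14.2 and 7.57 at DIV0. Of the 6 tested 5 were lower, beside 27.6% of all genes. Among them were the V2b and endothelial factors Gata2 (108 and 202 against 1.29 and 0) and Tal1 (58.7 and 109 against 0 in both). The dorsal factors Lmx1b (61.5 and 51.1 against 0 in both) and Lbx1 (44.3 and 29.4 against 0 in both) were also lower. So was Pax8 (35.2 and 32.4 against 0 in both). Tal1 was at least 40.1-fold lower and Lmx1b at least 26.96-fold lower. The filter admitted all 6 tested genes through E13.5 alone, so none could come out higher. The sums over the 20 factors are therefore the fuller description. Gata2 and Tal1 are also genes of blood and vessel cells, whose markers moved in the same direction, and their part in this was not tested. Lbx1 lost its call without either DIV0 library and Pax8 without DIV0 replicate 1, at adjusted p of 0.00484 and 0.00351 for Lbx1 and 0.00286 for Pax8. Pax2, an inhibitory interneuron factor, had 36.1 and 27.7 against 2.57 and 3.03 and was not called. The glutamate transporter Slc17a6 had 92.2 and 58.8 at E13.5 and 2.57 and 0 at DIV0 (adjusted p = 2.67e-06), with 2 counts in all at DIV0. Slc32a1 and Gad1, of inhibitory neurons, had 23.5 and 12.8 against 0 in both and 19.9 and 14.9 against 3.86 and 1.51 and were not tested. Th, which makes dopamine precursors, was higher at DIV0, with 15.4 and 7.66 at E13.5 and 268 and 197 at DIV0 (log2 fold change 4.43 ± 0.53 (SE), adjusted p = 6.46e-07), while Dbh, the next catecholamine enzyme listed, had 0 and 0.426 against 2.57 and 0.

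Most transcripts of vessel, blood, connective tissue and other non-neuronal cells were lower at DIV0. Over 7 lists (endothelial, pericyte, erythroid, fibroblast, microglia and macrophage, neural crest and Schwann cell, and skeletal muscle) with 72 genes, 45 had no count in either DIV0 library and 1 had none at E13.5. Of the 47 tested, 44 were lower at DIV0 and 0 higher, beside 27.6% of all genes lower. The filter admitted most of the 47 through E13.5 alone. The neural crest and Schwann cell list kept more at DIV0 than the others, with sums of 1554 and 1243 at E13.5 and 190.5 and 156 at DIV0. Endothelial cells line blood vessels, and their 14 genes summed to 16107 and 30916 at E13.5 and 12.9 and 31.8 at DIV0. Cdh5, the cadherin of endothelial junctions, had 3442 and 5852 at E13.5 and 0 in both libraries at DIV0 (at least 2227-fold lower, adjusted p = 1.58e-08). Pecam1 had 1821 and 3499 at E13.5 and 1.29 and 1.51 at DIV0 (adjusted p = 9.60e-12), and the VEGF receptor Kdr had 4608 and 9592 at E13.5 and 7.72 and 12.1 at DIV0 (log2 fold change -9.46 ± 0.501 (SE), adjusted p = 3.78e-11). Of the 14, 9 had no DIV0 count, and with such genes set at their bounds the median log2 fold change of the 13 tested was -8.65. Replicate 2 of E13.5 had more endothelial than pan-neuronal counts, at 124.6 per 100 pan-neuronal, against 42.9 in replicate 1 and 0.048 and 0.106 at DIV0.

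Pericytes wrap small vessels. Their 8 genes summed to 2651 and 2569 at E13.5 and 92.7 and 51.5 at DIV0, most of the DIV0 value being Notch3 (140.1 and 118 against 87.5 and 51.5), which was not called, and Rgs5 had 1084 and 1109 at E13.5 and 0 in both libraries at DIV0 (at least 525-fold lower, adjusted p = 4.99e-10). Erythroid genes summed to 16980.3 and 20101 at E13.5 and 6.43 and 1.51 at DIV0. The embryonic globin Hbb-y had 5734 and 7505 at E13.5 and 0 in both libraries at DIV0 (at least 3172-fold lower, adjusted p = 3.16e-08), and the adult-type Hba-a2 had 5967 and 6368 at E13.5 and 0 in both libraries at DIV0 (at least 2955-fold lower, adjusted p = 7.62e-11). Hba-a1 and Hba-a2 are nearly identical, so the division of reads between them is uncertain. Fibroblast genes of the meninges and connective tissue summed to 4512 and 3248 at E13.5 and 15.4 and 16.7 at DIV0. All 9 were lower, beside 27.6% of all genes. The collagen Col3a1 had 1823 and 1272 at E13.5 and 0 in both libraries at DIV0 (at least 741-fold lower, adjusted p = 2.03e-06), and Foxc1, a factor of the meninges, had 333 and 558 at E13.5 and 0 in both libraries at DIV0 (at least 213-fold lower, adjusted p = 3.12e-09). Twist1, Lum and Dcn were low, and lost the call without at least 2 of the 4 libraries (adjusted p of 0.0163, 0.00901 and 0.0313 without DIV0 replicate 1). Microglia were at the limit of detection even at E13.5, where Csf1r had 38.9 and 11.5 against 0 in both, and the perivascular macrophage gene Mrc1, the 1 gene of 12 that was tested, had 85.9 and 38.7 against 1.29 and 1.51 (adjusted p = 2.51e-04), and was not called without DIV0 replicate 1 or 2 or E13.5 replicate 1, at adjusted p of 0.00655, 0.00466 and 0.00252.

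**Figure D4:**
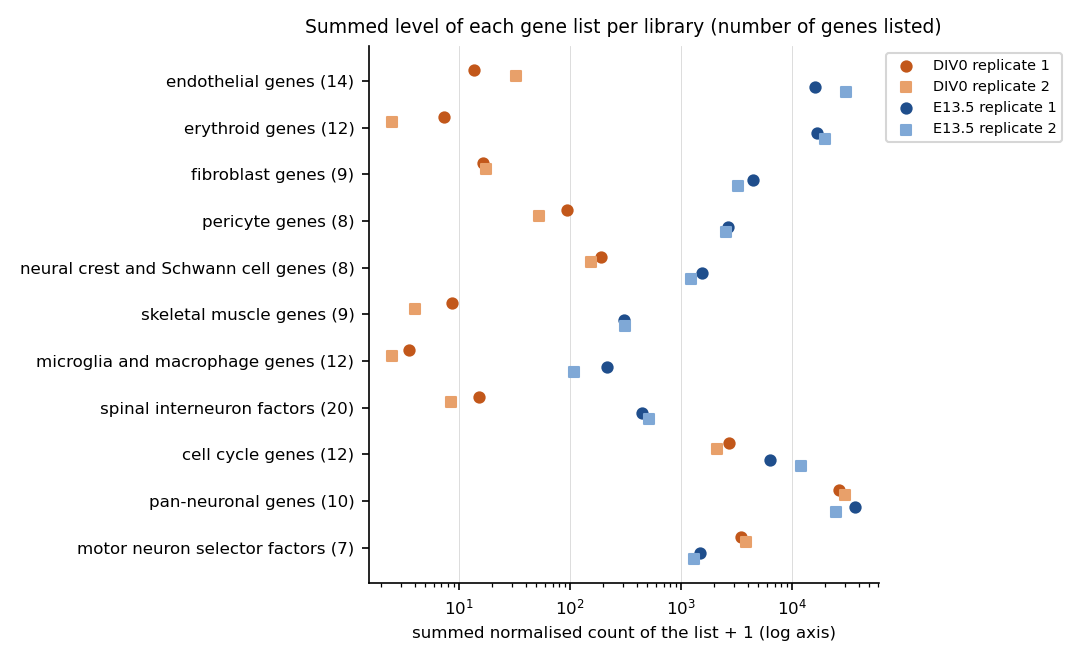
Summed normalised counts plus 1 (log axis) per library for 11 gene lists in 2 E13.5 and 2 DIV0 libraries. Pan-neuronal sums overlap between the groups, selector sums are higher at DIV0 (3521 and 3875 against 1476 and 1322), and endothelial sums fall from 16107 and 30916 to 12.9 and 31.8.

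Of 6 tested genes of astrocytes and radial glia, 2 were higher at DIV0 and 4 lower, beside 18.9% and 27.6% of all genes. Vim, an intermediate filament of radial glia that vessels and connective tissue also use, had 8792 and 13382 at E13.5 and 869.9 and 792 at DIV0 (log2 fold change -3.71 ± 0.34 (SE), adjusted p = 9.78e-09), and Fabp7 of radial glia and Schwann cell precursors had 1222 and 766 at E13.5 and 126 and 66.6 at DIV0 (log2 fold change -3.34 ± 0.36 (SE), adjusted p = 8.97e-08). The gap junction gene Gja1 and the glutamate transporter Slc1a3 were lower as well, with log2 fold changes of -6.78 ± 0.53 (SE) and -3.58 ± 0.49 (SE). Sox9, a gliogenic factor, was higher at DIV0, with 93.99 and 137 at E13.5 and 344 and 419 at DIV0 (log2 fold change 1.73 ± 0.26 (SE), adjusted p = 5.77e-06), and so was Slc1a2 (227 and 151 against 345 and 471, log2 fold change 1.14 ± 0.24 (SE)). Slc1a2 was not called without DIV0 replicate 2, at 0.86 (adjusted p = 0.0107), or E13.5 replicate 2, at 0.86 (adjusted p = 0.0106). Neither higher gene was called with factors from the pan-neuronal genes, at 1.16 (adjusted p = 0.0262) for Sox9 and 0.71 (adjusted p = 0.135) for Slc1a2. Aqp4 and Gfap, of mature astrocytes, were at or below 3.86 in every library. Sox10, the factor of crest and oligodendrocyte lineages, had 91.3 and 165 at E13.5 and 7.72 and 4.54 at DIV0 (log2 fold change -4.32 ± 0.48 (SE), adjusted p = 2.80e-07), and Erbb3 of Schwann cell precursors had 48.8 and 102 at E13.5 and 7.72 and 0 at DIV0 (log2 fold change -4.15 ± 0.72 (SE), adjusted p = 3.77e-05). Mbp, whose locus also makes the neuronal Golli transcripts, was higher, with 41.6 and 47.7 at E13.5 and 237 and 217 at DIV0 (log2 fold change 2.35 ± 0.303 (SE), adjusted p = 9.36e-07), whereas the myelin genes Mog and Mag were near 0. Sensory ganglion genes followed the embryo, Pou4f1 with 75.9 and 77.9 against 1.29 and 1.51 (adjusted p = 1.31e-05) and Prdm12 with 47.9 and 31.1 against 1.29 and 0 (adjusted p = 2.86e-06), both lower at DIV0.

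Of 12 pluripotency genes, 8 had no count in either DIV0 library and 4 had none at E13.5. Nanog, Zfp42, Dppa3 and Utf1 had 0 in both DIV0 libraries, and Pou5f1 had 1.81 and 0.852 against 5.15 and 0. Lin28a, an RNA-binding protein of stem cells and early neural tissue, was higher at DIV0, with 3.61 and 1.28 at E13.5 and 93.9 and 104 at DIV0 (log2 fold change 5.53 ± 0.54 (SE), adjusted p = 2.24e-08). Klf4, which vessel cells also express, had 202 and 315 at E13.5 and 0 and 1.51 at DIV0 (adjusted p = 8.39e-09). None of 10 mesoderm and endoderm genes was tested, and their sums were 53.3 and 69.8 at E13.5 and 15.4 and 6.06 at DIV0.

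**Figure D5:**
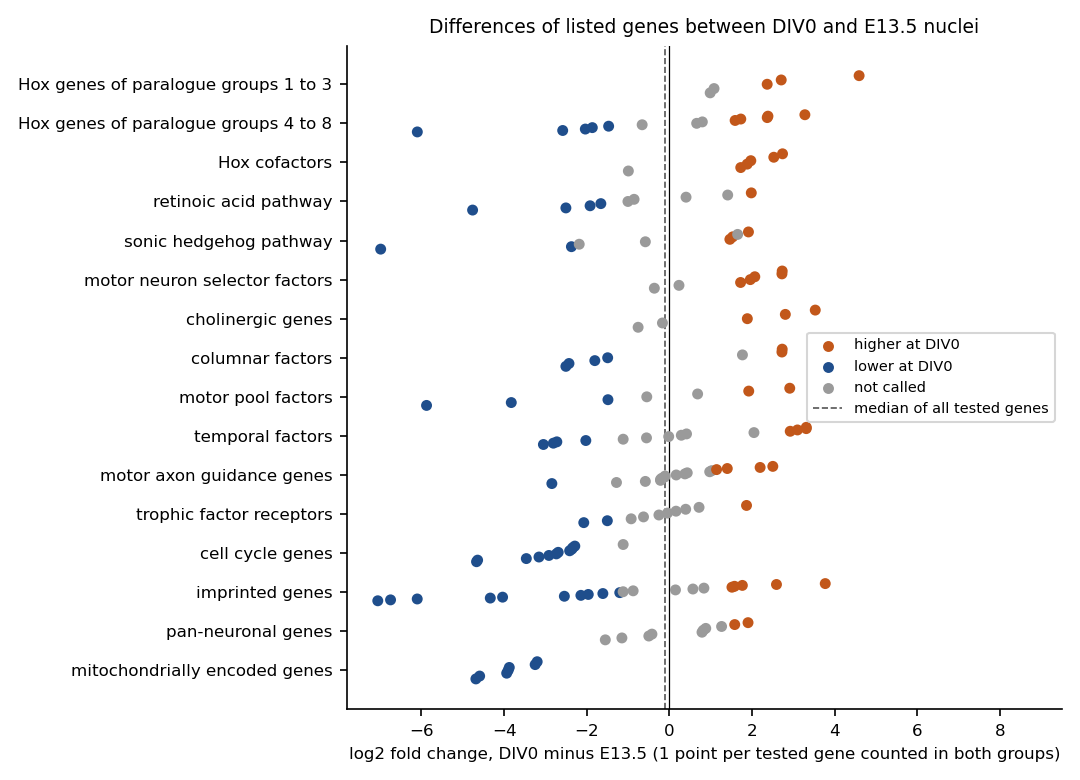
Log2 fold change (DIV0 over E13.5) of each tested gene reported here with counts in both groups, for 16 lists as 1 point a gene coloured by its call, with the median of all tested genes (-0.11) as a dashed line. Called genes of Hox groups 1 to 3, the cofactors and the selectors lie above 0 (Hoxd3 4.59, Meis2 2.74, Lhx4 2.72), and cell cycle genes lie below it (Cdk1 -4.64).

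Outside the lists, the naming rule gave 12 genes in each direction. Of the 12 higher genes, 6 were small nuclear or nucleolar RNAs. Rnu12, of the minor spliceosome, had 3.61 and 1.28 at E13.5 and 743 and 1095 at DIV0 (log2 fold change 8.74 ± 0.87 (SE), adjusted p = 2.62e-08). Slc18a2, the vesicular monoamine transporter, had 4.52 and 5.53 at E13.5 and 389 and 168 at DIV0 (log2 fold change 5.75 ± 0.64 (SE), adjusted p = 1.44e-07), beside the higher Th. Others were Rnu11, Snora9, Rnu2-10, Snora74a, Snora33, Crp, the receptor gene Eda2r, the glutamate receptor gene Grin2c, the Polycomb gene Cbx7 and Pcdhb12, with log2 fold changes between 5.35 and 7.22. The 12 lower genes included Lamb1, Col4a1, Col4a2 and Nid2, which encode basement membrane proteins. Col4a1 had 7478 and 15476 at E13.5 and 42.5 and 25.7 at DIV0 (log2 fold change -8.35 ± 0.67 (SE), adjusted p = 1.75e-09), and the hypoxia factor Epas1 had 2163 and 3566 at E13.5 and 15.4 and 1.51 at DIV0 (log2 fold change -8.28 ± 0.52 (SE), adjusted p = 1.15e-10). Lamb1, Selenop, Adgrf5, Col4a2, Itm2a, Nid2, Ahnak, Mmrn2, Slc40a1 and Apcdd1 were lower with log2 fold changes between -9.399 and -7.68.

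Classes of RNA moved together. The classes by annotated gene type were chosen after seeing the data. Of 50 tested small nuclear RNA genes 37 were higher at DIV0 and 0 lower, beside 18.9% and 27.6% of all genes. The class took 3.71% and 5.01% of counts at DIV0 against 0.326% and 0.325% at E13.5. Of 106 small nucleolar and Cajal body RNAs 64 were higher and 0 lower, beside the same shares of all genes. Among 77 cytosolic ribosomal protein genes 73 were lower at DIV0 and 0 higher, beside 27.6% of all genes lower. Their median log2 fold change was -2.94, and Rps23 had 5575 and 7146 against 199 and 136 (log2 fold change -5.22 ± 0.31 (SE)). All 7 tested mitochondrially encoded genes were lower, beside 27.6% of all genes, with a median of -3.90. Protein-coding genes took 89.3% and 91.6% of counts at E13.5 and 67.9% and 67.1% at DIV0. These classes moved with the groups in both libraries, and their part in the differences of single genes was not tested.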

How the data were processed

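RNA-seq libraries were made from purified nuclei with a stranded, ribosomal RNA depleted total RNA kit. Per the submitters' processing notes, reads were trimmed with Trim Galore and aligned to mm10 with STAR 2.5.2b, and RSEM 1.3.0 gave the deposited expected counts and TPM per gene, the latter scaled to effective length and depth. The study's methods state default RSEM parameters, under which strand is not used. For ATAC-seq, the deposited peak lists give each MACS2 summit of each library with its fold enrichment, a ratio of signal over background.

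Expected counts were rounded and fitted in edgeR 4.0.16 (R 4.3.3) with TMM factors over the 24 mapped RNA libraries without TTX, with 1 coefficient per age or culture day. Genes with at least 5 CPM in both libraries of DIV0 or of E13.5 were tested by the quasi-likelihood test with Benjamini-Hochberg adjustment. A gene was called at an unadjusted p under 0.001 and at least 2-fold. On simulated counts of 13007 genes for this comparison, 88 of 100 genes changed 4-fold, 39 of 100 changed 2-fold and 15 of 12807 unchanged genes were called. Normalised counts used DESeq2 1.42.0 size factors, and a group without counts was set at a floor of 3 counts over its libraries. Totals of 3496817 to 12731260 counts set the counting precision of low genes.

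The 39 gene lists and a list of cytosolic ribosomal proteins, and the choice of these libraries, were made with earlier results of these data known, so lists were described by counts and medians and no list was tested. Genes named outside the lists were the 12 with the largest log2 fold change in each direction among those called with a mean of at least 50 normalised counts in the higher group, more than 3 counts in a library of the lower group and groups that did not overlap, leaving out clone-named genes and pseudogenes. Replicate numbers were not used to pair libraries. Summits were matched within 1 kb of gene starts, and promoter letters came from the RefSeq table of GRCm38.p6. The library titled DIV0 replicate 3 was not used. Some genes of the lists stay in the counts and sums of their lists and are not reported here by name.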

Additional observations from a re-analysis of the deposited data

How the results depend on the processing

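The counts of genes higher and lower at DIV0 were 2457 and 3592. With DESeq2 size factors they were 2608 and 3495, with the DESeq2 Wald test 2805 and 3584, without E10.5 2634 and 3597, and at an adjusted p under 0.05 they were 3036 and 4129. Without a filter on low counts they were 2465 and 5234, and 2239 and 4026 with the filter taken over any group. A fit of only the 4 libraries gave 1413 and 2873. Leaving out 1 library gave 1578 to 2447 higher and 2988 to 3563 lower, the lowest count of higher genes being that without E13.5 replicate 2. Of called genes, 40.6% were higher, against 52.2% with E10.5 replicate 3 as the TMM reference (3295 and 3014) and 16.6% with pan-neuronal factors (667 and 3353), both added after seeing the data. The cause was not tested.

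Replicate numbers did not pair the libraries: deviations of replicate 1 at DIV0 and at E13.5 from their group means had a correlation of -0.067 over genes. With a replicate block 2425 genes were higher and 3556 lower, and 5925 of 6049 calls were shared.

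Of 283 named genes tested, 203 were called, and none reversed under any of these settings. Without at least 1 library, 42 lost the call, and 4 lost it whichever library was left out. The loss was 26 in the fit of 4 libraries, 34 with pan-neuronal factors, 8 with the other TMM reference and at most 5 with DESeq2 size factors, the Wald test, no filter, the other filter or without E10.5. Among the 26 were Hoxa5, Hoxc5, Hoxd8, Pbx4, Isl2, Aldh1a2, Rarg, Gas1, Alcam, Esrrg, Dcc, Fgfr1, Nfix, Elavl4 and Snap25. Aurkb, Bub1, Erbb3, Twist1, Slc1a2, Rian, Mirg and Egr1 were also among them. Genes with few counts, and genes at 0 in 1 group, are limited by depth: a 0 over both DIV0 libraries allowed up to 2.09 normalised counts on average.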

Other observations

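Imprinted genes, which are read from 1 parental copy, split widely. Of 20 tested, 5 were higher at DIV0 and 10 lower, beside 18.9% and 27.6% of all genes. The median log2 fold change was -1.16. The paternally expressed Zdbf2 had 367 and 364 at E13.5 and 5143 and 4702 at DIV0 (log2 fold change 3.77 ± 0.38 (SE), adjusted p = 3.27e-08), and the long noncoding RNA Kcnq1ot1 had 4449 and 2639 at E13.5 and 19142 and 23103 at DIV0 (log2 fold change 2.59 ± 0.44 (SE), adjusted p = 2.80e-05). The growth factor gene Igf2 had 1242 and 2134 at E13.5 and 20.6 and 3.03 at DIV0 (log2 fold change -7.06 ± 0.62 (SE), adjusted p = 6.31e-09), its neighbour H19 had 2606 and 4515 at E13.5 and 64.3 and 36.3 at DIV0 (log2 fold change -6.101 ± 0.56 (SE), adjusted p = 1.55e-08), and Grb10 had 2453 and 3813 at E13.5 and 27.02 and 30.3 at DIV0 (log2 fold change -6.75 ± 0.28 (SE), adjusted p = 1.68e-12). Cdkn1c, which lies in the domain of Kcnq1ot1, was lower, at 873 and 920.1 against 29.6 and 59.1 (log2 fold change -4.33 ± 0.34 (SE)). Of the noncoding RNAs of the Dlk1 domain, Rian and Mirg were higher (log2 fold changes 1.51 and 1.77), while Meg3 had 36021 and 34118 against 58771 and 64708 and was not called. Kcnq1ot1 and Cdkn1c kept these calls with factors from the pan-neuronal genes, and Rian and Mirg did not. Endothelial sums moved in the same direction as Igf2 and H19 (16107 and 30916 at E13.5 against 12.9 and 31.8 at DIV0), and their part was not tested.

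Of 5 sex-linked genes, all tested, 2 were higher at DIV0, beside 18.9% of all genes. The DIV0 nuclei came from a single stem cell line while the embryos were pooled. Xist, which is transcribed from the inactive X chromosome of females, had 3059 and 5385 at E13.5 and 69.5 and 63.6 at DIV0 (log2 fold change -5.96 ± 1.61 (SE), adjusted p = 0.00258, not called). The Y-linked genes Uty and Eif2s3y were higher at DIV0, with 207 and 102 against 739 and 639 and 201 and 101 against 665 and 565 (log2 fold changes 2.19 ± 0.42 (SE) and 2.06 ± 0.46 (SE)), and neither was called without E13.5 replicate 2, at 1.75 (adjusted p = 0.00538) and 1.63 (adjusted p = 0.0158), nor was Eif2s3y without DIV0 replicate 1, at 1.91 (adjusted p = 0.00504). With factors from the pan-neuronal genes neither was called, at 1.85 (adjusted p = 0.00574) for Uty and 1.72 (adjusted p = 0.0168) for Eif2s3y. The Y-linked genes Ddx3y and Kdm5d had 208 and 186 against 356 and 297 and 234 and 119 against 399 and 423 and were not called. By chromosome, the median log2 fold change over tested genes ran from -0.46 on chromosome 11 to 0.27 on chromosome 18 among the autosomes and was -0.48 on X. Among immediate early genes, Npas4, which neuronal activity induces, had 12.7 and 5.96 at E13.5 and 65.6 and 72.7 at DIV0 (log2 fold change 3.002 ± 0.58 (SE), adjusted p = 1.03e-04), whereas Egr1 had 54.2 and 82.2 at E13.5 and 3.86 and 15.1 at DIV0 (log2 fold change -2.88 ± 0.55 (SE), adjusted p = 1.05e-04) and Fos was low in every library. Npas4 was not called without E13.5 replicate 2, at 2.45 (adjusted p = 0.00608), nor Egr1 without DIV0 replicate 1, at -2.19 (adjusted p = 0.00605).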
